A study of Mus musculus with 12 samples.

Results

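Phgdh, Psat1, Psph, Shmt1, Shmt2, Mthfd1, Mthfd2, Got1 and Got2 encode enzymes of serine synthesis, of the folate-bound one-carbon cycle and of aspartate and glutamate transamination. They were chosen by name, as 9 of the 21896 protein-coding genes of the mouse GRCm38.p6 annotation. H3K9/14ac, the acetylated form of lysines 9 and 14 of histone H3 that is found where promoters and enhancers are active, was read over each gene span with 5 kb added to each side. In these windows lay 16 to 18 peaks per KO library, 12 to 13 peaks per WT library and 18 of the 40909 regions that the authors tested. Got1 and Got2 act on glutamate, the product of glutamine breakdown, and none of the 9 enzymes takes glutamine itself as its substrate.

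The study examined histone acetylation in T helper 17 (Th17) cells, the CD4 T cells that make interleukin 17. KO cells had the genotype Slc2a3-fl/fl Cd4-cre, in which the gene of the glucose transporter GLUT3 is floxed and Cre is driven by Cd4, a promoter active from the thymocyte stage onwards. WT cells were labelled wild type, both groups had the C57BL/6 background, and the labels do not say whether WT mice carried Cre. All cells were naive T cells cultured for 3 days under Th17 polarising conditions, then stimulated for 3 h with PMA and ionomycin, which together mimic receptor signalling, while Bref A and Monensin were present. There were 3 KO and 3 WT ChIP libraries, made with RELACS, in which chromatin is cut by the enzyme CviKI-1 and barcoded inside the nuclei so that samples share 1 immunoprecipitation. Matching input libraries were left out. Whether the 3 libraries of a genotype came from separate mice is not stated in the labels, so every p-value measures the spread between these libraries, which may be technical.

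The KO libraries were shallower than the WT libraries. The mean number of fragments over a base, solved from the deposited peaks and called mean coverage, was 1.85, 2.29 and 1.92 in KO libraries 1 to 3, against 3.99, 3.48 and 2.97 in WT libraries 1 to 3 (exact two-sided permutation p = 0.1, the smallest that 3 against 3 allows). Peak numbers were 39264 to 40582 in KO libraries and 40997 to 43507 in WT libraries. Of 8 Th17 and CD4 T cell genes (among them Il17a and Cd3e), 7 to 8 carried a peak in KO libraries and all 8 in WT libraries, with 59408 to 70035 bp under peaks in KO and 83825 to 94572 bp in WT. Peaks were present at 1 to 3 of 5 B cell genes in KO libraries and 2 in WT libraries, at 4 of 5 myeloid and 2 of 5 CD8 or NK lineage genes in every library, and at 1 to 2 of 4 erythroid genes in both genotypes. Ms4a1 of B cells, Cd8a, Ncr1 and Klrb1c of CD8 T and NK cells, Lyz2 of myeloid cells and the globin genes Hba-a1 and Hbb-bs had no peak in any library. The summed peak width of the B cell list was 5840 to 7697 bp in KO libraries and 8264 to 9610 bp in WT libraries. That of the CD8 and NK list was 6032 to 6231 bp in KO and 6435 to 7229 bp in WT, that of the myeloid list 8009 to 9917 bp in KO and 13728 to 15022 bp in WT, and that of the erythroid list 1336 to 1787 bp in KO and 2081 to 3204 bp in WT. At Slc2a3, the authors' deposited table gave 8 of 9 regions as lower in KO, and the one with the lowest FDR had -1.80 (log2 fold change, FDR 8.24e-18). Acetylation at Slc2a3 does not itself show that the floxed part was deleted. Depth and the widths of all marker lists, the Th17 list included, were lower in KO, and their part in the results at the 9 genes was not tested. In bulk chromatin, fewer cells with a mark and less mark per cell cannot be told apart.

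Serine is made from a glycolytic intermediate by Phgdh, Psat1 and Psph in turn. Serine hydroxymethyltransferases then pass a carbon of serine to folate, Shmt1 in the cytosol and Shmt2 in mitochondria, and methylenetetrahydrofolate dehydrogenases carry the folate-bound carbon on, Mthfd1 in the cytosol and Mthfd2 in mitochondria, towards purines and thymidylate. Got1 in the cytosol and Got2 in mitochondria exchange amino groups between aspartate and glutamate and form part of the malate-aspartate shuttle. Activated T cells are known to raise this metabolism when they begin to divide.

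In the authors' deposited table, 8 of the 18 regions were lower and 6 were higher in KO at an FDR under 0.05, and 4 were not called. Over all 40909 regions of that table, 46.3% were lower and 12.7% higher in KO. The share lower among the 18 regions, 44.4%, thus lay near the background, while the share higher, 33.3%, was above it, and with 18 regions on 9 genes neither share was tested. The median log2 fold change, KO over WT, was -0.62 at the 18 regions and -0.62 over all regions. Scaling libraries by mean coverage instead adds 0.29 to every log2 fold change of that table and turns none of the 18 signs. All regions called at Phgdh, Psat1, Shmt1 and Mthfd2 were lower, all called at Shmt2 and Got2 were higher, Psph and Mthfd1 had 1 of each, and the single region of Got1 was not called.

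**Figure D1:**
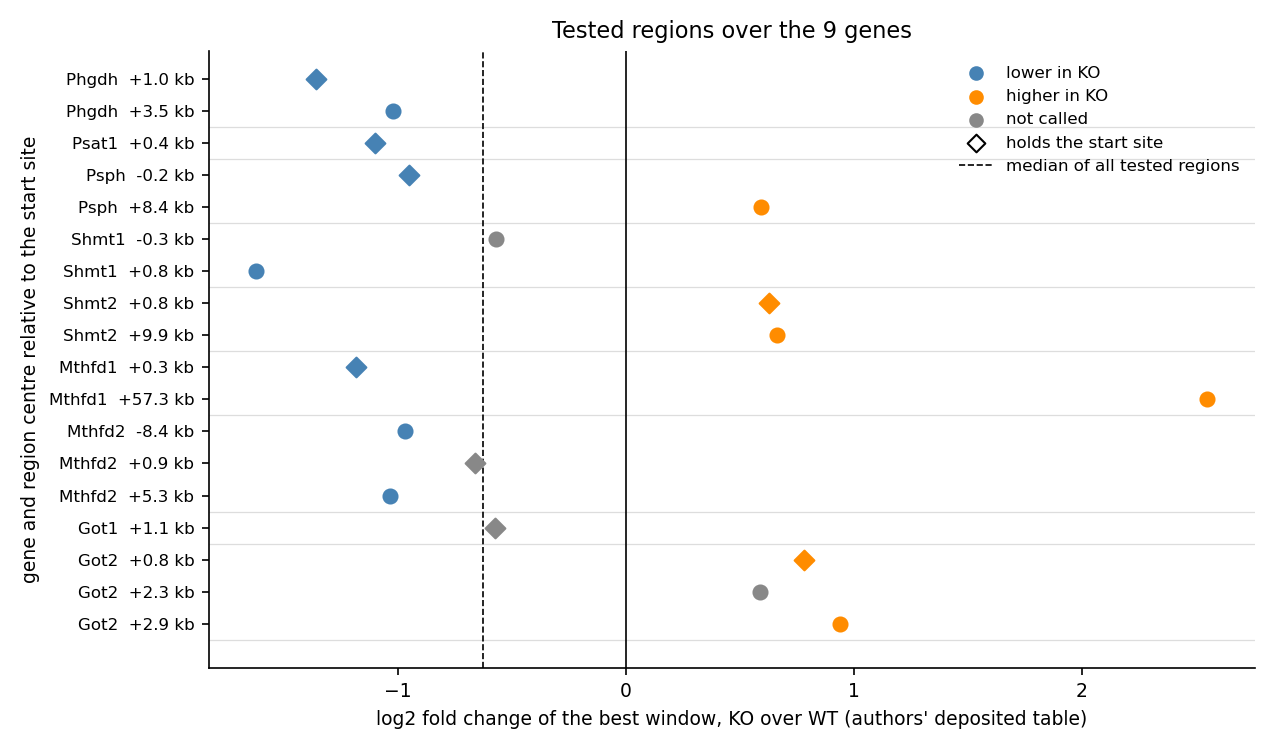
Log2 fold change of the best 150 bp window, KO over WT, in the authors' deposited table (x axis) for each of the 18 tested regions, listed from top to bottom by gene and by the distance of the region's centre from the start site. Blue points are lower in KO, orange points higher and grey points not called, diamonds hold the gene's start site, and the dashed line is the median of all tested regions, -0.62; the orange points belong to Psph, Shmt2, Mthfd1 and Got2.

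Of the 8 genes with a tested region over the start site, Phgdh, Psat1, Psph and Mthfd1 were lower there, Shmt2 and Got2 were higher, and Mthfd2 and Got1 were not called. Over the 8176 genes with such a region, the authors' deposited table gave 61.5% as lower and 4.15% as higher. The start site of Shmt1 lay in the gap between its 2 regions. The log2 fold change of a region is that of its best window, while its FDR is given for the region. Each gene was therefore also read by its highest summit, in fragments, divided by the mean coverage of the library (the scaled height), and by the base pairs under peaks. In each library the height was that of the highest peak in the gene's window.

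**Figure D2:**
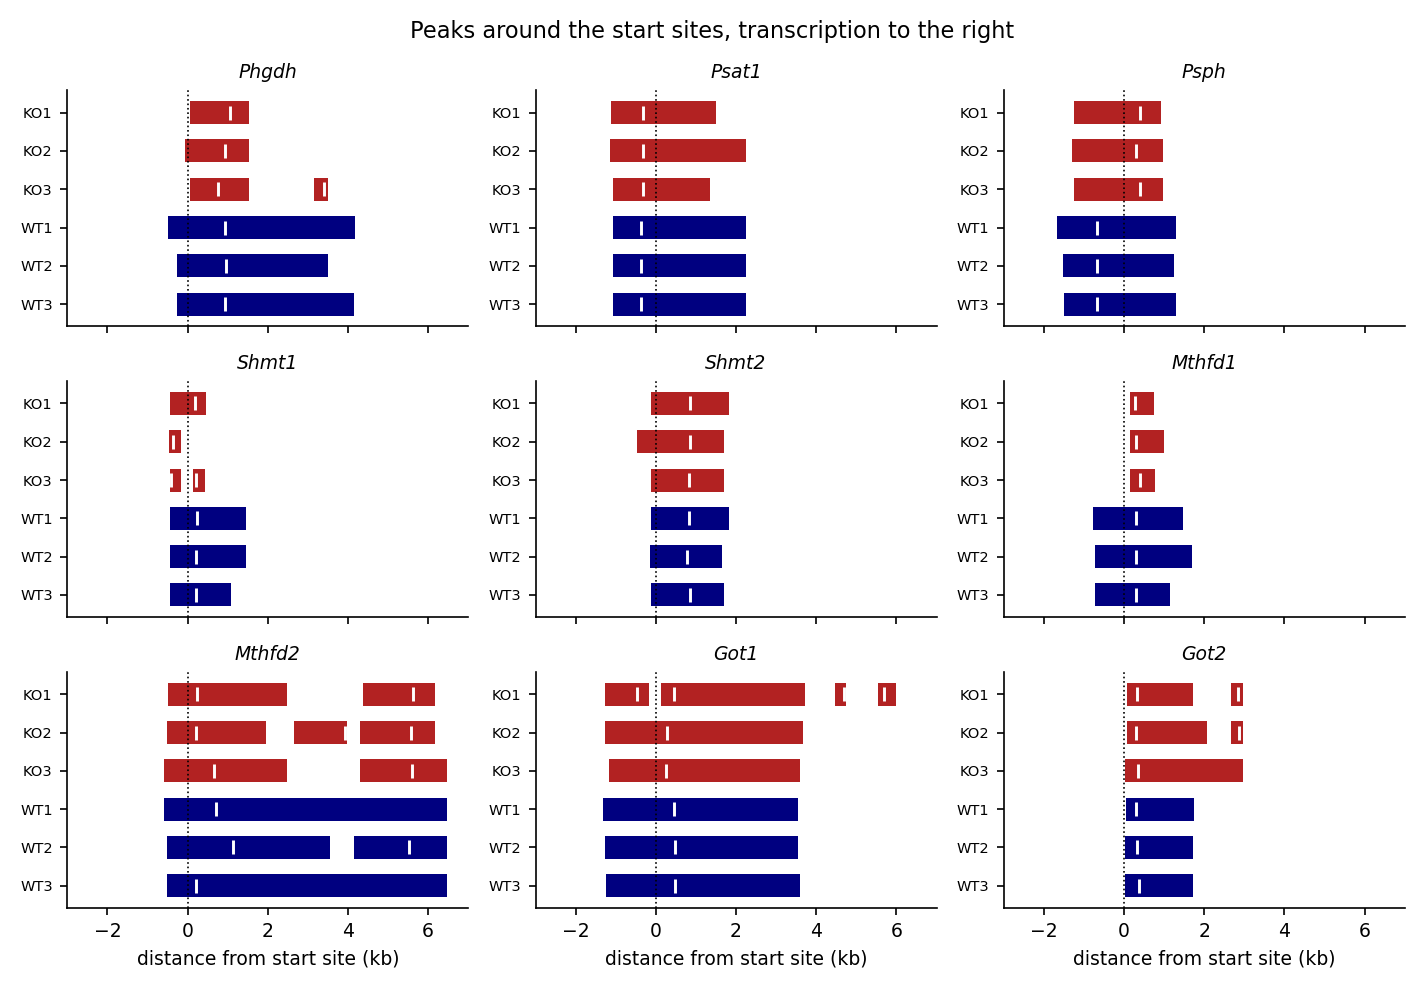
Peaks (bars) and their summits (white ticks) in 3 KO libraries (red) and 3 WT libraries (blue), by distance from the start site in kb with transcription to the right; peaks beyond the plotted range are not drawn. Over Phgdh, Shmt1 and Mthfd1 the KO bars are shorter than every WT bar, over Shmt2 and Got1 the main bars are alike, and over Got2 the KO bars reach further into the gene.

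Phgdh, the first and committing enzyme of serine synthesis (gene ID 236539, chr3:98313171-98339969, minus strand), had the lowest share of its WT peak width among the 3 serine synthesis genes. Its peaks covered 1479, 1610 and 1825 bp in KO libraries 1 to 3, against 4663, 3776 and 4421 bp in WT libraries 1 to 3. All 3 KO values lay below all WT values, at 38.2% of the WT mean (exact two-sided permutation p = 0.1). With the authors' single-read peak lists the difference, KO minus WT, was -1085 bp, against -2649 bp here. Among the 14013 genes with a peak in any library, 41.2% had every KO library below every WT library in this measure and 6.18% had every KO library above. The summit differed little at mean coverage scaling. Its scaled height was 76.2, 68.6 and 68.2 in KO and 76.5, 78.4 and 78.8 in WT, with KO below WT in every library but by 0.13 on the log2 scale. In fragments the summits were 141, 157 and 131 in KO and 305, 273 and 234 in WT, without overlap. The small size of the difference thus depends on the scaling. In limma, fitted to the scaled heights of 17958 regions with a summit in every library, the log2 fold change of the start region was -0.14 (95% interval -0.39 to 0.12, adjusted p = 0.42).

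With heights divided by mean coverage, the difference at Phgdh thus sat on the flanks. The main KO peak ended 1542 bp downstream of the start in all 3 libraries, whereas the WT peaks ran on to 4164, 3503 and 4148 bp. The authors' best window of the start region was centred 1543 bp downstream, where the KO peaks ended. The authors' deposited table gave that window a log2 fold change of -1.36, with an FDR of 6.27e-08 for the region. A second region, 3119 to 3868 bp downstream, was given -1.02 (FDR 0.00192) by the authors' deposited table, and 1 of 3 KO libraries and all 3 WT libraries had a peak there.

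Psat1, the transaminase of the second step (gene ID 107272, chr19:15905123-15925059, minus strand), went opposite ways at its flank and at its summit. The scaled height was 142, 125 and 133 in KO libraries and 101, 81.3 and 77.8 in WT libraries, so that every KO library exceeded every WT library. The limma log2 fold change of that summit was 0.63 (95% interval 0.34 to 0.92, adjusted p = 0.00315). Over the regions in the limma fit, 14.7% were lower and 17.9% were higher in KO. Before division by mean coverage the heights overlapped, with 262, 286 and 256 fragments in KO and 401, 283 and 231 in WT, so the separation of the genotypes at this summit depends on the scaling. In the authors' deposited table the same region, chr19:15923101-15926250, was lower, with a log2 fold change of -1.10 (FDR 0.00292) in a window centred 1733 bp downstream of the start, and 3 of its 21 windows went down and 0 up. Peaks covered 2600, 3388 and 2410 bp in KO and 3307 bp in each WT library, and the groups overlapped (exact two-sided permutation p = 0.4).

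Psph, the phosphatase that releases serine (gene ID 100678, chr5:129765558-129787443, minus strand), shares its start region with Cct6a, a chaperonin subunit gene that starts nearby on the opposite side. The highest summit lay 387, 286 and 392 bp downstream of the Psph start in KO libraries, and at -675, -673 and -672 bp, upstream and towards Cct6a, in WT libraries. Its scaled height was 103, 98.7 and 105 in KO and 104, 114 and 113 in WT, and the groups overlapped. In fragments the summits were 191, 226 and 202 in KO and 413, 398 and 337 in WT, without overlap. The region was lower in the authors' deposited table, with a log2 fold change of -0.95 (FDR 8.41e-05), and its best window was centred at -1073 bp from the Psph start, on the Cct6a side. Calls there cannot be given to 1 of the 2 genes.

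A region inside Psph, 7553 to 9202 bp downstream of the start site, was higher in KO. Its scaled summit was 61.1, 65.9 and 58.9 in KO libraries and 40.6, 40.5 and 43.1 in WT libraries, without overlap. limma gave a log2 fold change of 0.58 (95% interval 0.32 to 0.84, adjusted p = 0.00248). The value was 0.59 (FDR 0.0422) in the authors' deposited table, where 3 of the region's 11 windows went up and 1 went down. In fragments, its summits were 113, 151 and 113 in KO and 162, 141 and 128 in WT, which overlap.

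Shmt2, the mitochondrial serine hydroxymethyltransferase (gene ID 108037, chr10:127517123-127522444, minus strand), had the highest scaled summit of the 9 genes in every KO library. The values were 170, 176 and 160 in KO and 97.5, 90.2 and 87.5 in WT, 184% of the WT mean. All KO libraries stood above all WT libraries (exact two-sided permutation p = 0.1). Among the 11989 genes with a peak in every library, 20.5% had KO above WT without overlap in this measure and 17.6% had KO below WT. The mean height of Shmt2 stood at percentile 95.8 of those genes in KO and at percentile 79.2 in WT. In limma the start region rose by a log2 fold change of 0.88 (95% interval 0.62 to 1.14, adjusted p = 0.000134), and by 0.63 (FDR 0.00461) in the authors' deposited table. In fragments, without scaling, the summits were 315, 403 and 308 in KO and 389, 314 and 260 in WT, which overlap.

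The base pairs under peaks in the Shmt2 window did not separate the genotypes. Peaks there covered 3359, 3535 and 2624 bp in KO and 3283, 3130 and 3608 bp in WT (exact two-sided permutation p = 0.8). These values include part of a peak over the neighbour Ndufa4l2 and, in WT library 3, a small peak upstream. The start peak alone was 1932, 2184 and 1820 bp wide in KO and 1932, 1779 and 1798 bp in WT, which overlap. A second region in the Shmt2 window, chr10:127511551-127513500, lay beyond the end of the gene over Ndufa4l2. It was also higher, with scaled summits of 91.4, 85.2 and 81.8 in KO and 52.7, 43.4 and 37.0 in WT and a limma log2 fold change of 0.97 (95% interval 0.66 to 1.28, adjusted p = 0.00024). Whether that region acts on Shmt2 was not tested.

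Shmt1, the cytosolic counterpart (gene ID 20425, chr11:60788897-60811265, minus strand), had the lowest scaled summit of the 9 genes in every library, and its values in KO were the lower ones. Its scaled height was 20.5, 17.9 and 18.2 in KO and 29.8, 39.6 and 40.4 in WT, 51.6% of the WT mean, and the groups did not overlap (exact two-sided permutation p = 0.1). In fragments this was 38, 41 and 35 in KO and 119, 138 and 120 in WT. Peaks covered 896, 300 and 593 bp in KO libraries and 1904, 1904 and 1529 bp in WT libraries, 33.5% of the WT mean (exact two-sided permutation p = 0.1), a difference of -1183 bp that was -543 bp with single-read peaks. In KO library 2 the peak lay wholly upstream of the start and none was listed downstream, so limma, which needs a summit in every library, did not include the gene.

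The region just inside Shmt1, chr11:60809701-60811200, was the lowest of the 18 in the authors' deposited table, at -1.62 (log2 fold change, FDR 2.95e-10), and all 10 of its windows went down. The region upstream of the start was not called there, with -0.57 (FDR 0.0702), close to the median of all regions.

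The proximal promoters of the 2 serine hydroxymethyltransferase genes are shown because peak edges lie inside them and the signal of the 2 genes went opposite ways. Each holds the 250 bases before the start site, read 5′ to 3′ on the minus strand, from the RefSeq table for GRCm38.p6, and capitals mark the sites of CviKI-1, the enzyme that cut the chromatin, a GC with A or G before it and C or T after it.
Shmt2, chr10:127522445-127522694: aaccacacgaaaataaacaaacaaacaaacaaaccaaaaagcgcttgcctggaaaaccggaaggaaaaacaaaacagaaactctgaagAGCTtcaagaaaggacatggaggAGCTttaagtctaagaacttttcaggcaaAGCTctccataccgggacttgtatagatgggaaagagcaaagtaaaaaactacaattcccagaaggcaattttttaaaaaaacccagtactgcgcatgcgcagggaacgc
Shmt1, chr11:60811266-60811515: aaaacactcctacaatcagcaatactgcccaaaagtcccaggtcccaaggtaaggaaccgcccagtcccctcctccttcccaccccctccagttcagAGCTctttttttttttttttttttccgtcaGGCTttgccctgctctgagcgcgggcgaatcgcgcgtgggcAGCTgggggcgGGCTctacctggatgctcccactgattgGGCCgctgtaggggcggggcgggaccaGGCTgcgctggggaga
The Shmt2 stretch holds 3 sites and the Shmt1 stretch 6. The upstream edge of the Shmt2 start peak lay at the same base, -108 bp from the start, in KO libraries 1 and 3 and WT libraries 1 and 3, and at -137 bp in WT library 2, in each case at a CviKI-1 cut. The upstream peaks of Shmt1 in KO libraries 2 and 3 ended at -152 bp, also at a cut. Of 13 peak edges that fell inside the promoter stretches of the 9 genes, 12 (92.3%) lay at a cut, against 84.2% of 15661 edges over 32815 promoters, where cuts make up 2.35% of bases. Most of these boundaries thus lie at cut sites, and peak widths in bp differ in steps from one site to another.

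**Figure D3:**
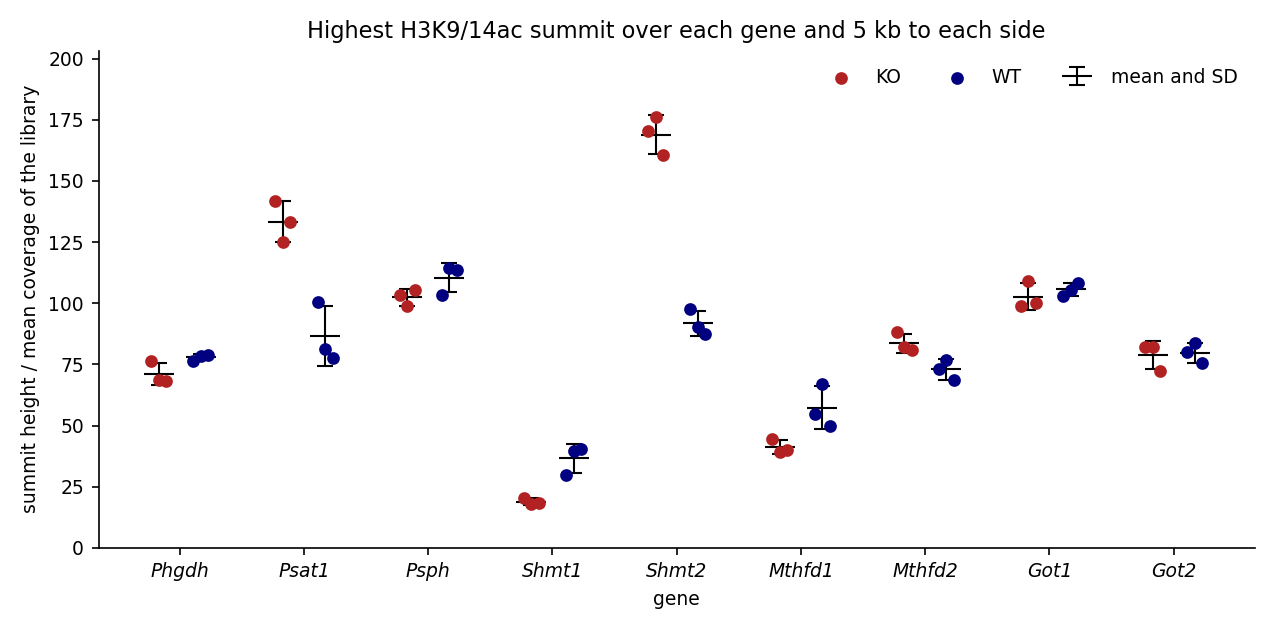
Height of the highest summit of each gene divided by the mean coverage of the library (y axis), with 1 point per library, KO in red to the left of WT in blue, and mean and SD as black bars (n = 3 each). Shmt2 and Psat1 stand higher in KO, Shmt1 and Mthfd1 stand lower, and Got1 and Got2 overlap.

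Mthfd1, the cytosolic enzyme with dehydrogenase, cyclohydrolase and synthetase activities (gene ID 108156, chr12:76254406-76319820, plus strand), was lower at its start by each measure. Its scaled height was 44.3, 39.3 and 40.1 in KO libraries and 54.9, 66.9 and 49.8 in WT libraries, without overlap. limma gave a log2 fold change of -0.46 (95% interval -0.76 to -0.16, adjusted p = 0.0209). That call was lost without KO replicate 2 (adjusted p = 0.0709 in limma) and without WT replicate 2 (adjusted p = 0.0995 in limma). Peaks covered 1068, 1527 and 1593 bp in KO and 2265, 2423 and 1883 bp in WT, also without overlap (exact two-sided permutation p = 0.1). The KO values include peaks far downstream that no WT library had. The start peak alone was 600, 844 and 616 bp wide in KO and 2265, 2423 and 1883 bp in WT. Distances at Mthfd1 run from the RefSeq promoter table's start site, base 76255232, which lies inside the annotated gene span, as do the start sites used for Psph and Mthfd2. The start peak began 158 bp downstream of that site in all 3 KO libraries, and at -785, -734 and -734 bp, upstream of the start, in WT libraries. In the authors' deposited table all 14 windows of the region went down, with a best log2 fold change of -1.18 (FDR 0.000162).

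A second region of Mthfd1, chr12:76312351-76312800, 57119 to 57568 bp downstream of the start site, had a peak in 3 of 3 KO libraries and 0 of 3 WT libraries. Its summits were low, with 25, 53 and 25 fragments in KO libraries 1 to 3, and the WT level is unknown because lists hold only peaks above a threshold. Its log2 fold change in the authors' deposited table was 2.55 (FDR 1.05e-11), with all 3 windows up. Over all tested regions 2.6% had a peak in every KO and no WT library, and 2 of the 18 regions were of this kind, the other at Got2.

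Mthfd2, the mitochondrial dehydrogenase and cyclohydrolase (gene ID 17768, chr6:83305704-83326011, minus strand), had the most base pairs under peaks of the 9 genes, the start of its neighbour Mob1a included. They covered 6793, 7627 and 7125 bp in KO libraries and 9159, 8435 and 9084 bp in WT libraries, 80.8% of the WT mean (exact two-sided permutation p = 0.1). In WT libraries 1 and 3 a single peak of 7055 and 6980 bp ran from upstream of the start to 6478 bp downstream, while in all KO libraries and in WT library 2 it was split. The scaled height was 88.1, 82.1 and 80.7 in KO and 73.2, 76.95 and 68.7 in WT, with every KO library above every WT library. limma did not call this difference, with a log2 fold change of 0.20 (95% interval -0.06 to 0.46, adjusted p = 0.237). In fragments every KO library was lower, with 163, 188 and 155 in KO and 292, 268 and 204 in WT.

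The authors' deposited table did not call the start region of Mthfd2, with -0.66 (FDR 0.139), near the median of all regions. It called the part of the broad peak 4154 to 6403 bp downstream of the start site lower, with -1.03 (FDR 0.000113). A further region, chr6:83324851-83327100, covers the start of the neighbour Mob1a. It also holds the upstream end of the annotated Mthfd2 span, so its call cannot be given to 1 of the 2 genes. The authors' deposited table gave this region -0.97 (FDR 0.0245). Its scaled summits, however, were 35.1, 36.2 and 38.5 in KO and 34.6, 35.6 and 36.0 in WT, which overlap.

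Got1, the cytosolic aspartate aminotransferase (gene ID 14718, chr19:43499752-43524605, minus strand), did not differ detectably in scaled height or covered bp. Its scaled height was 98.9, 109 and 100 in KO libraries and 103, 105 and 108 in WT libraries, and its peaks covered 5400, 4924 and 4774 bp in KO and 4874, 4815 and 4855 bp in WT. Both measures overlapped (exact two-sided permutation p = 0.5 for each). In fragments, without scaling, the summits were 183, 250 and 192 in KO and 411, 367 and 322 in WT, without overlap. The difference in covered bp was 185, and ranged from 1.0 without KO replicate 1 to 314 without KO replicate 3. The limma log2 fold change was -0.04, with a 95% interval of -0.30 to 0.22 (adjusted p = 0.822), and the authors' deposited table gave -0.57 (FDR 0.0629).

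Got2, the mitochondrial aspartate aminotransferase (gene ID 14719, chr8:95864133-95888401, minus strand), did not differ detectably in scaled summit height but had more base pairs under peaks in every KO library. The scaled height was 82.2, 82.1 and 72.4 in KO and 80.0, 83.6 and 75.4 in WT, and limma gave a log2 fold change of -0.02 (95% interval -0.28 to 0.25, adjusted p = 0.94). In fragments the summits were 152, 188 and 139 in KO and 319, 291 and 224 in WT, without overlap. Peaks covered 1950, 2308 and 2957 bp in KO libraries and 1714, 1697 and 1697 bp in WT libraries, 141% of the WT mean, and the groups did not overlap (exact two-sided permutation p = 0.1). The difference of 702 bp was 426 bp without KO replicate 3, and with single-read peaks it was 209 bp (exact two-sided permutation p = 0.4). Got2 was the 1 gene of the 9 with KO above WT in covered bp without overlap. The authors' deposited table called its start region higher, with 0.78 (FDR 0.0032) in a window centred 1275 bp inside the gene, on the downstream side of the summit. The region 2701 to 3000 bp inside the gene had peaks in 3 of 3 KO and 0 of 3 WT libraries and was higher in the authors' deposited table, at 0.94 (FDR 0.00152).

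The promoters of the 9 genes were searched on both strands for 3 motifs, since 2 of their known regulators, Atf4 and Myc, bind such letters. TGATGNAA is the core of the amino acid response element bound by ATF4, CACGTG is the E-box bound by MYC and TGACGTCA is the cAMP response element. Each motif was counted on its own, so that 1 stretch could count for more than 1 motif. Of 32851 promoters of the same 250 bases, 3.45% hold TGATGNAA, 6.02% hold CACGTG and 1.55% hold TGACGTCA. Among the 10 promoters of the 9 genes, TGATGNAA matched once, in Got1, and the other motifs did not match in these windows. The Got1 match, in capitals as TTGCATCA because it lies on the opposite strand, begins at -102 bp and is shown with its flanks, 5′ to 3′ on the minus strand, from the RefSeq table for GRCm38.p6.
Got1, chr19:43524684-43524723: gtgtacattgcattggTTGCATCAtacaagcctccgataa
The match lies under the start peak in KO libraries 2 and 3 and in all WT libraries, and between 2 peaks in KO library 1. The 10 promoters had a median GC content of 59.2% and a median of 14 CpG, against 52.4% and 6 over all promoters.

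The 3 pairs of mitochondrial and cytosolic enzymes were compared within each library, as the log2 ratio of the mitochondrial to the cytosolic gene's summit height, which no library scaling can change. For Shmt2 over Shmt1 the log2 ratio was 3.05, 3.30 and 3.14 in KO libraries and 1.71, 1.19 and 1.12 in WT libraries. The KO mean exceeded the WT mean by 1.83 (3.16 ± 0.13 in KO and 1.34 ± 0.32 in WT, SD, n = 3 each; exact two-sided permutation p = 0.1, adjusted over 3 pairs 0.15). For Mthfd2 over Mthfd1 it was 0.99, 1.06 and 1.01 in KO and 0.42, 0.20 and 0.46 in WT, a difference of 0.66 (exact two-sided permutation p = 0.1, adjusted 0.15). In both pairs all KO libraries lay above all WT libraries, and 3 against 3 cannot reach a lower p. Of all ordered pairs of the 11989 genes with a peak in every library, 22.2% had every KO ratio above every WT ratio. Each pair counts in both orders, so the same share had every KO ratio below every WT ratio. For Got2 over Got1 it was -0.27, -0.41 and -0.47 in KO and -0.37, -0.34 and -0.52 in WT, with a difference of 0.03 and overlapping groups (exact two-sided permutation p = 0.8, adjusted 0.8).

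**Figure D4:**
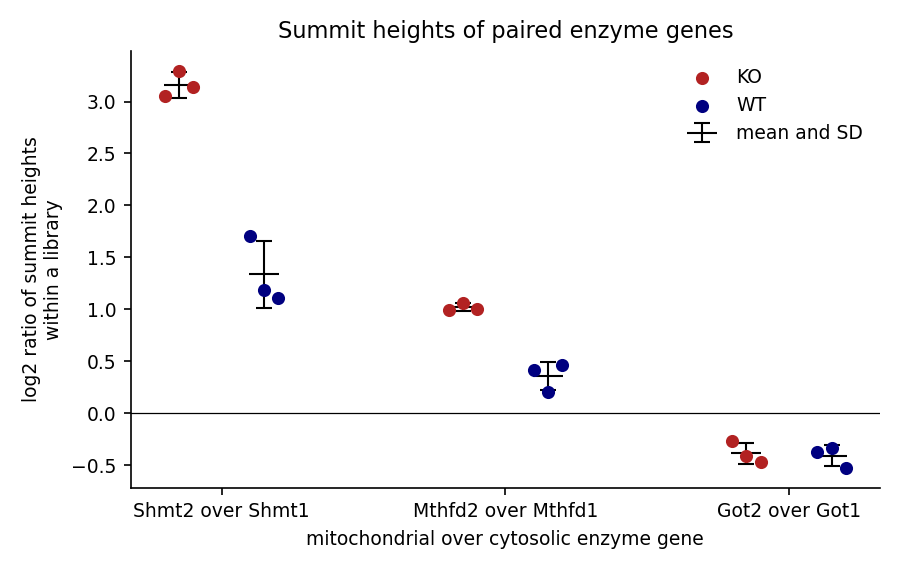
Log2 ratio of the summit height of the mitochondrial gene to that of the cytosolic gene within each library (y axis), 1 point per library with KO in red to the left of WT in blue, and mean and SD as black bars (n = 3 each). The KO points stand above the WT points for Shmt2 over Shmt1 and for Mthfd2 over Mthfd1, and the points overlap for Got2 over Got1.

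Summed over the 9 genes, peaks covered 26672, 28922 and 26989 bp in KO libraries and 35739, 33300 and 34493 bp in WT libraries. The mean was 27528 ± 1218 bp in KO and 34511 ± 1220 bp in WT (SD, n = 3 each), 79.8% of WT and lower in every KO library (exact two-sided permutation p = 0.1). With single-read peaks the difference was -3166 bp, against -6983 bp. The median gene with a peak in every library stood at 84.4% of its WT coverage. Phgdh, Psph, Shmt1, Mthfd1 and Mthfd2, 5 of the 9, had every KO library below every WT library, as did 41.2% of the 14013 genes with a peak in any library. The number was 4 with single-read peaks and 4 in the gene span alone, and Psph left it in both: its difference, -858 bp, was -86.3 bp with single-read peaks (exact two-sided permutation p = 0.8) and -571 bp in the gene span alone (exact two-sided permutation p = 0.2). Summed scaled summit heights went the other way, with 825, 799 and 779 in KO and 719, 737 and 700 in WT, a difference of 82.3 or 11.5% of the WT mean (exact two-sided permutation p = 0.1). Psat1, Shmt2 and Mthfd2 stood above WT in every KO library, Phgdh, Shmt1 and Mthfd1 below, and Psph, Got1 and Got2 overlapped, where 20.5% of the 11989 genes stood above without overlap and 17.6% below. The median log2 ratio of height over those genes was 0.007. In fragments not divided by mean coverage, the difference was -35.4% of the WT mean, so the direction of the summed height depends on the scaling. The order of the genes by height also differed. Shmt2 was the highest in each KO library and Psph in each WT library, while Mthfd1 and Shmt1 were the lowest of the 9 in all 6.

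**Figure D5:**
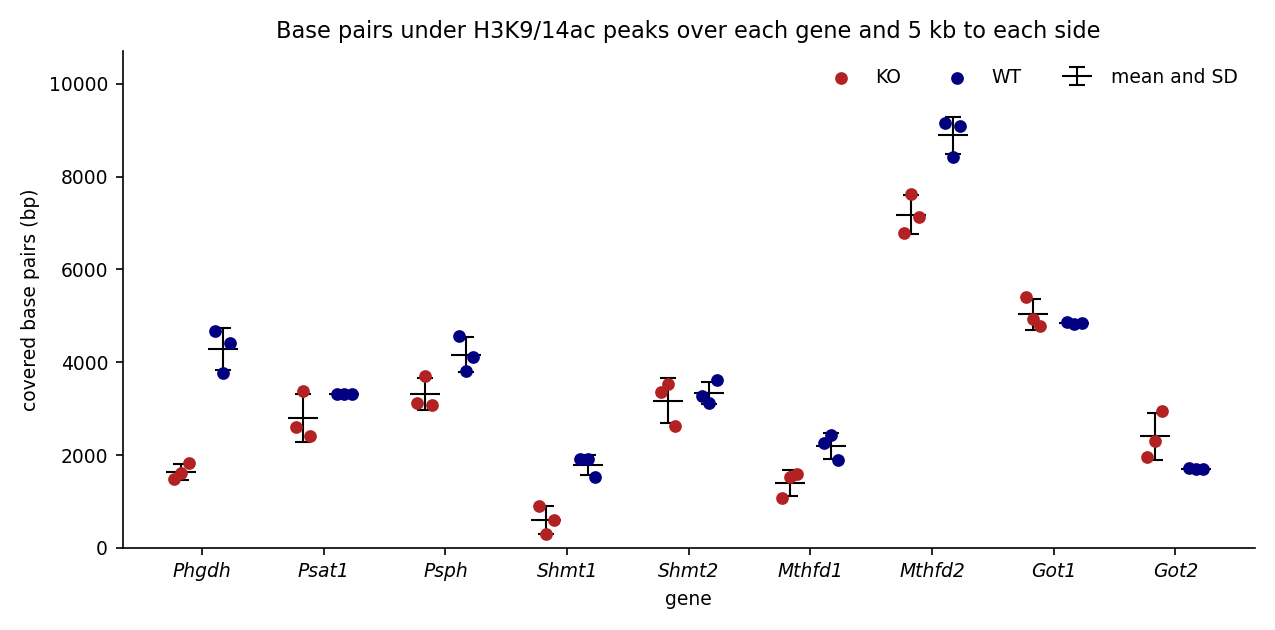
Base pairs under peaks over each gene span and 5 kb to each side (y axis), 1 point per library with KO in red to the left of WT in blue, and mean and SD as black bars (n = 3 each). Phgdh and Shmt1 show the lowest KO values relative to WT, 38.2% and 33.5% of the WT mean, and Got2 alone stands higher in KO without overlap.

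For other genes of the same pathways, the region with the lowest FDR was taken from the authors' deposited table, a choice that favours changed regions. It was sought over the gene span with 5 kb to each side. It may thus lie away from the gene's start site or over a neighbour. Of 47 such genes with a region, 37 were lower, 1 was higher and 9 were not called, and of the 9 genes 5 were lower, 3 were higher and 1 was not called. Over the 13154 genes with a region, 67.5% were lower and 11.8% were higher. The median log2 fold change was -0.96 for the 47 genes, -0.95 for the 9 genes and -0.88 over all genes. By these counts the other pathway genes were more often lower than the average gene and the 9 genes more often higher, and neither difference was tested. Mthfd1 counts as higher only through its far downstream region, at 2.55 (FDR 1.05e-11) in the authors' deposited table. Its start region was lower there, at -1.18 (FDR 0.000162).

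In the cytosolic folate and thymidylate list 8 of 9 genes with a region were lower and none higher, among them Slc19a1, the reduced folate carrier, at -1.77 (FDR 1.62e-16), and Gart, an enzyme of purine synthesis, at -1.83 (FDR 6.27e-14), both in the authors' deposited table. All 5 genes of the methionine cycle were lower there, with Mat2a, which makes S-adenosylmethionine, at -1.53 (FDR 9.51e-14) and Mtrr, which reactivates methionine synthase, at -1.18 (FDR 1.23e-06). Mitochondrial folate genes were lower in 4 of 5 cases, including Mthfd2l, an isozyme of Mthfd2, at -1.62 (FDR 3.84e-06) and the folate carrier Slc25a32 at -1.11 (FDR 6.29e-07) in the authors' deposited table. The share over all 13154 genes with a region was 67.5% lower and 11.8% higher, and no list was tested against it.

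Of 6 glycine cleavage and transsulfuration genes the authors' deposited table gave 4 as lower and 0 as higher, with Gcsh at -1.05 (FDR 1.51e-05) and Dld at -1.19 (FDR 1.6e-05), both parts of the glycine cleavage system. All 5 partners of the malate-aspartate shuttle were lower there, led by the carriers Slc25a11 at -1.13 (FDR 1.88e-05) and Slc25a13 at -1.40 (FDR 3.17e-05). In the same shuttle, Got2 was higher and Got1 was not called. The Slc25a11 value is not that of its start region, which the authors' deposited table gave as -0.97 (FDR 0.000921). Of 15 genes of glutamine and glutamate use 9 were lower, 1 higher and 5 not called in the authors' deposited table. Pfas, of purine synthesis, was among the lower ones at -1.09 (FDR 5.97e-06), and the higher gene was Gpt2, the mitochondrial alanine aminotransferase, at 0.78 (FDR 0.00352). Both regulators were lower in the authors' deposited table, Atf4 at -0.71 (FDR 0.0228) and Myc at -0.96 (FDR 0.0137). These counts stand beside 67.5% lower and 11.8% higher over all 13154 genes with a region, with a median log2 fold change of -0.88. None of these lists was tested against that share. No tested region over a start site was found for Slc25a32, Pfas or Myc.

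Genes whose covered bp were most like those of Phgdh and Mthfd2 across the 6 libraries were found by the smallest Euclidean distance in log2(covered bp + 100). Nearest to Phgdh were Gm46319 (distance 0.364), Tmem217 (0.432) and Efcab12 (0.461). Gm46319, for example, had 1546, 1544 and 1519 bp in KO libraries and 4735, 4098 and 3775 bp in WT libraries. The gene was picked for this likeness in covered bp, so the likeness is not a result in itself. Nearest to Mthfd2 were Kxd1 (0.158), Rpl24 (0.185) and Letm2 (0.188).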

How the data were processed

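H3K9/14ac ChIP-seq was analysed for 3 KO and 3 WT libraries, grouped by their labels. Tools listed in the submitters' processing notes are MACS2 2.2.6, Bowtie2 2.3.5.1, deepTools 3.3.2, cutadapt 2.8 and bcl2fastq 2.20.0.422, and the builds are mm10 and GRCm38. The authors deposited peaks called per library, on paired-end fragments (used here) and on single reads (an alternative). Each deposited peak carries the authors' score, fold (a linear ratio to background) and −log10 p and q values, per the file layout, the lowest −log10 q being 3.0. The authors' deposited table gives for each of 40909 regions of 150 bp windows a best-window log2 fold change, a p-value and FDR, and, for each direction, a count of windows. Not given in the sources used here are its program, its library scaling and the control for peak calling. Having no value per library, it could not be refitted.

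Of the tested regions, 24128 had listed spans, 16571 were rebuilt from single-read peaks (98.8% of listed spans were rebuilt exactly), 207 were placed by their best window and 3 were not located. Negative log2 fold changes mean lower in KO: of 2730 regions with peaks in all WT and no KO libraries, 99.9% were negative. Summit heights in fragments and mean coverage were solved from each peak's deposited fold and p-value, which in MACS2 follow (height + 1) / (background + 1) and a Poisson tail. Whole heights within 0.01 were obtained for 99.9% to 100% of peaks. The lowest background that 50 or more peaks had in common was taken as mean coverage. The solver was tested on simulated data, where it was exact for 100% of 974 peaks. The authors' log2 fold change followed the log2 ratio of these heights across 1277 regions, with an offset of 0.49, and adding 0.29 puts it on mean coverage scaling. Heights carry counting error that is not shown.

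Single values were compared by exact two-sided permutation tests over libraries. limma 3.58.1 in R 4.3.3 was fitted to log2(height / mean coverage) of 17958 regions with Benjamini-Hochberg adjustment over all of them, with no filter beyond a summit in every library and no pseudocount. On simulated data for KO against WT over 17958 regions, with 200 changed by a log2 of 1, limma recovered 82.5% and called 12 others. The limma fit was chosen after seeing the data. Members, pathway lists, motifs and tests were chosen with earlier results of these data known. All 9 genes and Slc2a3 were to be named, up to 2 lower and 2 higher genes per pathway list by lowest FDR, and the 3 genes nearest to Phgdh and to Mthfd2; 1 gene this rule takes is not reported here. Alternatives were single-read peaks, stricter thresholds, equal numbers of 39264 peaks, other window sizes and scalings, and leaving out each library. Gene positions, start sites and promoters came from RefSeq tables for GRCm38.p6, in which all 9 genes matched by symbol.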

Additional observations from a re-analysis of the deposited data

How the results depend on the processing

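Of 202 alternative values, 182 kept their sign or, for counts, stayed within 1.5 times, though some of them moved in size, 9 changed sign and 11 moved. Covered bp of single genes made up 108 of the 202. Taking equal numbers of peaks left every value it was applied to unchanged, so the 182 include values that did not move at all. In the authors' deposited table, the 8 lower regions became 2 with mean coverage scaling and a log2 fold change of at least 1 in size, and the 6 higher regions became 3 there and 1 at that size in the table's own scaling. Over all regions, 15.1% were lower and 11.6% were higher with mean coverage scaling and that size. In these counts only the log2 fold change was rescaled. The FDR stayed that of the table's own scaling, so regions not called there could not enter. By limma on scaled summit heights, which could test 11 of the 18 regions, 1 region was lower and 4 were higher. Over all regions in the limma fit, 14.7% were lower and 17.9% were higher. The 4 include the region over Ndufa4l2 beyond Shmt2. Without a summit in every library, limma left out regions called lower at Phgdh, Shmt1 and Mthfd2 and regions called higher at Mthfd1 and Got2. Without 1 library the lower count in limma ranged from 0 to 1, with 0 without KO replicate 2 or WT replicate 2. The summed summit height, 11.5% above WT, was -35.4% when not divided by mean coverage.

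Covered bp of Psat1 differed by 156 (KO minus WT) with single-read peaks, against -508 in the report. The summed coverage, -6983, was -3166 with those peaks. For Shmt2 the difference, -168 in the report, was 16.3 with single-read peaks, 142 with 2 kb to each side, 30.7 in the gene span alone and -349 to 107 when 1 library was left out, the sign changing without KO replicate 3. For Got1 it was -56.3 with −log10 q of at least 5, against 185. The difference in log2 for Got2 over Got1 ranged from -0.031 to 0.068 when 1 library was left out. The cause of these changes and of the counts above was not tested. Leaving out 1 library gave -7680 to -6369 bp for the summed coverage, 9.75% to 13.0% for the summed height, 1.72 to 2.01 for Shmt2 over Shmt1 and 0.58 to 0.71 for Mthfd2 over Mthfd1.

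The labels give no shared origin for libraries with the same replicate number. Deviations of same-numbered libraries correlated at 0.010, -0.009 and 0.023 over 11989 genes, and those of the others at -0.029 to 0.021. With 3 libraries per genotype these values cannot decide whether such libraries were paired. A replicate block in limma left 1 lower and 4 higher regions at the 9 genes, and 2470 lower and 3030 higher regions in all, against 2644 and 3207. Summit heights from single-read peaks were not run, because mean coverage could not be recovered from those lists. Depth limits the comparisons where summits are low: the KO summits hold 35 to 41 fragments at Shmt1 and 25 to 53 in the far downstream region of Mthfd1.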
